A study of Mus musculus with 30 samples.

Results

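Cxcl9, Cxcl10 and Cxcl11, the chemokine genes whose products are the ligands of the receptor CXCR3, were followed by bulk RNA sequencing in tumor cells treated in culture. They were chosen by gene symbol and make up 3 of the 49315 genes counted, and all 3 were among the 21138 genes with at least 10 reads combined over 24 libraries. The cells were B16F10, a mouse melanoma line, and 6694c2, a mouse pancreatic ductal adenocarcinoma (PDAC) line, both labelled C57BL/6. By the study's methods, 6694c2 came from mice with 1 floxed p53 allele, Pdx-cre (Cre driven in the pancreatic lineage) and a floxed YFP reporter. Both lines were exposed in culture to IFNγ (100 ng/mL), IFNβ (1000 U/mL), a STING agonist (225 μg/mL) or vehicle for 24 h, and each of the 8 groups had 3 libraries. Each line stands for its tumor type as 1 line only, and nothing in the labels says whether the 3 libraries of a group came from separate cultures, so p-values measure the spread between these libraries, which may be technical.

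CXCR3 sits on activated Th1 and CD8+ T cells and on NK cells, and gradients of its ligands draw these cells into inflamed tissue and tumors. IFNγ signals through JAK1 and JAK2 to dimers that bind GAS elements, and it raises the transcription factor IRF1. Type I interferons such as IFNβ signal through JAK1 and TYK2 to complexes with STAT2 and IRF9, which bind interferon-stimulated response elements (ISRE). STING, which senses cyclic dinucleotides, acts through TBK1, IRF3 and NF-kB and can make a cell produce IFNβ itself. CXCL9 was first described as a monokine induced by IFNγ, CXCL10 is known as a target of both interferon types and of NF-kB, and CXCL11 also binds the atypical receptor ACKR3.

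The 3 genes lie side by side on the minus strand of chromosome 5 (GRCm38), within 44.1 kb. Cxcl9 (ENSMUSG00000029417) runs from 92321347 to 92328079, Cxcl10 (ENSMUSG00000034855) from 92346638 to 92348889 and Cxcl11 (ENSMUSG00000060183) from 92359544 to 92365485. The gap from Cxcl9 to Cxcl10 is 18.6 kb and that from Cxcl10 to Cxcl11 is 10.7 kb. GENCODE M21 lists Cxcl9 and Cxcl10 as protein coding and Cxcl11 as a polymorphic pseudogene, since the C57BL/6 reference carries a disrupted Cxcl11 reading frame, so Cxcl11 values here are RNA and say nothing of a protein.

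Promoters of Cxcl9 and Cxcl10 (250 bases before to 50 after the start of the gene, from RefSeq, GRCm38.p6) are shown. Both genes have a promoter sequence in the source used here, and Cxcl11 has none. The promoters shown are given as a description. They were searched on both strands for an ISRE core (GAAA, any 2 bases, GAAA), a GAS element (TTCNNNGAA), an NF-kB form (GGG, any 3 bases, TTCC) and TATAAA, and matches are in capitals. Cxcl9 is from chr5:92328030-92328329 and Cxcl10 from chr5:92348840-92349139, both on the minus strand and written 5′ to 3′.
Cxcl9: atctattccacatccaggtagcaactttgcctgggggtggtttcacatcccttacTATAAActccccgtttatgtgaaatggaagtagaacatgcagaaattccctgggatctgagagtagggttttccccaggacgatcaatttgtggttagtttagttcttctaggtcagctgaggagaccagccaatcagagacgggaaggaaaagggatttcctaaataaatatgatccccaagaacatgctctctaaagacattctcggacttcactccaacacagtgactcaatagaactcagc
Cxcl10: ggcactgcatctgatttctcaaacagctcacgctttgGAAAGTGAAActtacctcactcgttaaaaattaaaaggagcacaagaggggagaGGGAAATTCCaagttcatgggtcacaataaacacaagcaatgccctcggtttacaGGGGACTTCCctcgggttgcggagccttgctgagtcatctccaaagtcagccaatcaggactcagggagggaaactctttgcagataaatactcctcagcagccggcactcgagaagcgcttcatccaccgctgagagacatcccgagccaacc
The Cxcl10 window held an ISRE core from -213 to -204 relative to the start, and NF-kB forms from -159 to -150 (GGGAAATTCC) and from -104 to -95 (GGGGACTTCC). None of these overlapped. The Cxcl9 window held TATAAA from -195 to -190 and no match to the other forms. Looser spellings of these sites were not searched in either window. Among 32851 promoters of this length, 3.44% held the ISRE core, 8.30% the GAS element, 5.56% the NF-kB form and 13.6% TATAAA. These matches are letters in a window, binding was not measured, and a link to the treatment responses was not tested.

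Libraries held 15543131 to 32266795 reads on genes. Melanocyte markers summed to between 16966 and 21399 CPM in B16F10 libraries and ductal epithelial markers to between 12152 and 14407 CPM in 6694c2 libraries, each at most 152.7 CPM in the other line. CPM are counts scaled to a common library size by TMM within a line, and RPKM are CPM per kilobase of counted exon. The summed markers of myeloid cells, a main source of these chemokines in tumors, moved with the interferons in 6694c2 libraries. Their 9 genes summed to 36.5 to 40.3 CPM with vehicle, 59.0 to 66.3 with IFNγ, 47.0 to 51.9 with IFNβ and 39.1 to 42.6 with STING agonist, and to 11.9 to 18.3 CPM over all B16F10 libraries. From 0 to 3 of the 9 had 0 reads in a group, always among Itgam, Itgax and Fcgr1. All 3 were at 0 with IFNγ in 6694c2 cells, where the myeloid sum, carried by the other genes of the list, was highest. The 9 lymphocyte markers summed in 6694c2 libraries to 20.7 to 29.5 CPM with vehicle, 15.4 to 22.7 with IFNγ, 51.8 to 60.1 with IFNβ and 21.4 to 23.7 with STING agonist. In B16F10 libraries they summed to 12.8 to 21.1 CPM with vehicle, 25.3 to 36 with IFNγ, 19.3 to 29.0 with IFNβ and 18.6 to 27 with STING agonist. The T cell markers Cd3e and Cd3d were the lymphocyte genes at 0 reads, at least 1 of them in 7 of the 8 groups. Both were at 0 with IFNβ in 6694c2 cells, where the lymphocyte sum, carried by the other genes of the list, was highest. Levels of single marker genes are not reported here. The part of myeloid cells and lymphocytes in the ligand levels was not tested. In bulk RNA, more cells that make a transcript and more transcript per cell cannot be told apart.

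Cxcl10 was the most abundant of the 3 ligands in all 8 groups. Per length, it made up between 87.7% (6694c2 with IFNγ) and 99.9% (either line with IFNβ) of their summed RPKM. In B16F10 cells with vehicle, the 3 libraries held 389, 558 and 567 Cxcl10 reads. With IFNγ they held 24700, 16608 and 20813, with IFNβ 15288, 14862 and 14201, and with STING agonist 891, 1082 and 862. No 2 of these groups overlapped in reads. The level was 22.6 ± 2.40 CPM with vehicle, 928 ± 80.5 with IFNγ, 633 ± 28.2 with IFNβ and 51.9 ± 4.56 with STING agonist (SD, n = 3 each). By RPKM, 4948 genes stood above Cxcl10 with vehicle, 2590 with STING agonist, 183 with IFNβ and 124 with IFNγ.

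Cxcl10 rose in B16F10 cells with each of the 3 treatments. Its log2 fold change against vehicle was 5.36 with IFNγ (SE 0.067, adjusted p = 5.34e-248, edgeR's quasi-likelihood F-test, Benjamini-Hochberg adjusted), 40.9-fold. With IFNβ it was 4.80 (SE 0.0659, adjusted p = 2.79e-232, edgeR), 27.9-fold. With STING agonist it was 1.19 (SE 0.0661, adjusted p = 8.88e-51, edgeR), 2.29-fold. Genes called at an adjusted p under 0.05 in the same direction made up 12% of all genes tested with IFNγ, 12.7% with IFNβ and 1.93% with STING agonist. Each neighboring pair in the order of levels differed: IFNγ exceeded IFNβ by 0.55 on the log2 scale (adjusted p = 7.41e-21, edgeR; 7.85% of all genes were called higher) and STING agonist lay below IFNβ by a log2 difference of -3.61 (adjusted p = 3.33e-198, edgeR; 11% were called lower). With all 24 libraries in one fit, the adjusted p for IFNγ against vehicle was 3.27e-34 in B16F10 and 3.37e-33 in 6694c2 cells (edgeR). The size of these p-values thus depends on the libraries in the fit.

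Reads of the other line's marker genes moved with STING agonist in B16F10 cells. In these libraries the median ductal epithelial marker stood at 1.32% to 1.74% of its level in 6694c2 cells with vehicle, against 0.452% to 1.09% in B16F10 vehicle libraries. The 12 ductal markers summed to 115 to 152.7 CPM with STING agonist and 19.4 to 26.3 CPM with vehicle, and all 12 had reads in both groups. At 1.74%, the highest 6694c2 group level of Cxcl10 (668 CPM) would amount to 11.6 CPM, and the level with STING agonist in 6694c2 cells to 0.0477 CPM. The measured levels were 22.6 CPM with vehicle and 51.9 CPM with STING agonist, and the part of such reads in the difference was not tested.

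In 6694c2 cells Cxcl10 rose with both interferons, and the order of the interferons was the opposite of that in B16F10 cells. Vehicle libraries held 54, 43 and 23 reads and STING agonist libraries 86, 75 and 79. With IFNγ there were 3847, 2951 and 5483 reads, and with IFNβ 20404, 14672 and 20964. The interferon groups overlapped neither each other nor the other groups. Levels were 2.14 ± 0.809 CPM with vehicle, 181 ± 17 with IFNγ, 668 ± 55.4 with IFNβ and 2.74 ± 0.340 with STING agonist (SD, n = 3 each). By RPKM, 10422 genes stood above Cxcl10 with vehicle, 10005 with STING agonist, 711 with IFNγ and 198 with IFNβ.

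The log2 fold change of Cxcl10 in 6694c2 cells was 6.39 with IFNγ (SE 0.127, adjusted p = 3.45e-35, edgeR; 7.89% of all genes were called higher), 83.8-fold. With IFNβ it was 8.27 (SE 0.129, adjusted p = 3.83e-39, edgeR; 10.4% were called higher), 309-fold. IFNγ lay below IFNβ by a log2 difference of -1.88 (adjusted p = 3.70e-22, edgeR; 7.30% were called lower). With STING agonist the log2 fold change was 0.34 (95% interval -0.01 to 0.70, adjusted p = 0.67, edgeR), in counts of 240 against 120 reads from deeper libraries, and in CPM the vehicle and STING agonist groups overlapped. In all, 0.203% of genes were called higher with STING agonist in this line. Melanocyte markers in 6694c2 vehicle libraries stood at 0.399% to 0.463% of their B16F10 level. At 0.463%, the B16F10 level of Cxcl10 with IFNγ would amount to 4.3 CPM and that with vehicle to 0.105 CPM, beside the 2.14 CPM measured, and the part of such reads in the 6694c2 vehicle level was not tested.

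Cxcl9 rose with IFNγ in both lines and was at a few reads per library in every other group. B16F10 libraries held 433, 277 and 301 Cxcl9 reads with IFNγ, against 0, 6 and 2 with vehicle, 4, 9 and 8 with IFNβ and 7, 5 and 4 with STING agonist. In 6694c2 cells there were 670, 553 and 889 reads with IFNγ, against 5, 2 and 2 with vehicle, 4, 3 and 3 with IFNβ and 0, 0 and 2 with STING agonist. In each line the IFNγ libraries stood apart from all others, and the 3 remaining groups of B16F10 overlapped. With IFNγ, Cxcl9 stood at 15 ± 1.63 CPM in B16F10 and at 31.6 ± 3.29 CPM in 6694c2 cells (SD, n = 3 each), and no other group averaged over 0.302 CPM.

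In B16F10 cells the log2 fold change of Cxcl9 with IFNγ was 6.90 (SE 0.288, adjusted p = 1.27e-77, edgeR), and 8.18 without vehicle replicate 2, which held 6 of the 8 vehicle reads. In 6694c2 cells it was 7.56 (SE 0.235, adjusted p = 4.62e-28, edgeR). With IFNβ it was not called in either line, at 1.28 in B16F10 (95% interval 0.14 to 2.41, adjusted p = 0.0986) and -0.42 in 6694c2 cells (95% interval -1.67 to 0.83, adjusted p = 0.758, edgeR). Without B16F10 vehicle replicate 2 the IFNβ difference in B16F10 was called, at 2.56 (adjusted p = 0.0106, edgeR). With STING agonist it was 1.24 in B16F10 cells (adjusted p = 0.361, edgeR), 0.75 without vehicle replicate 1 and 2.52 without vehicle replicate 2. In 6694c2 cells 2 reads stood against 9, a ratio of 0.141 per library size (95% counting interval 0.0148 to 0.679, adjusted p = 0.31, edgeR). Replicate 3 held both STING agonist reads, and the fitted log2 fold change, -2.58, was -5.01 without it, with that group at 0 reads. Directly against IFNβ, Cxcl9 was higher with IFNγ by 5.62 on the log2 scale in B16F10 (adjusted p = 7.08e-73) and by 7.98 in 6694c2 cells (adjusted p = 2.78e-29, edgeR; 6.57% of all genes were called higher). At 1.74%, the 6694c2 level of Cxcl9 with IFNγ would amount to 0.550 CPM, above the 0.302 ± 0.127 CPM measured in B16F10 cells with STING agonist (SD, n = 3), and the part of such reads was not tested.

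Cxcl11 rose with both interferons in both lines, at low read counts throughout. In B16F10 cells there were 27, 21 and 27 reads with IFNγ, 11, 10 and 10 with IFNβ, 7, 0 and 1 with STING agonist and 0, 0 and 3 with vehicle. In 6694c2 cells there were 61, 51 and 97 reads with IFNγ, 21, 24 and 21 with IFNβ and 0, 1 and 0 with STING agonist. The 3 vehicle libraries of 6694c2 held 0 reads, which allows up to 0.0539 CPM (3 reads over the group, counting error only). The interferon groups overlapped neither each other nor vehicle in either line. Levels with IFNγ were 1.13 ± 0.128 CPM in B16F10 and 3.06 ± 0.138 in 6694c2 cells, and with IFNβ 0.443 ± 0.0330 and 0.808 ± 0.197 (SD, n = 3 each).

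Against the 3 vehicle reads of B16F10, Cxcl11 was 25.0 times as high with IFNγ (95% interval 8.22 to 124, counting error only, adjusted p = 2.39e-08, edgeR) and 9.81 times with IFNβ (3.06 to 50.2, adjusted p = 0.00078, edgeR). Without vehicle replicate 3, which held all 3 of those reads, both were still called (adjusted p = 1.31e-08 and 0.000105, edgeR), and no ratio is given. Against the floor of 3 reads over the vehicle group, it was at least 56.9-fold higher with IFNγ in 6694c2 cells (adjusted p = 1.04e-12) and at least 14.6-fold higher with IFNβ (adjusted p = 2.00e-07, edgeR). With STING agonist in B16F10 cells the ratio was 3.23 (95% counting interval 0.775 to 18.9, adjusted p = 0.506, edgeR). STING agonist replicate 1 held 7 of those 8 reads, and without it the log2 fold change was -0.69. In 6694c2 cells 1 read with STING agonist stood against 0, and no fold is given. IFNγ exceeded IFNβ by 1.93 on the log2 scale in 6694c2 cells (SE 0.309, adjusted p = 6.90e-06, edgeR). The same difference in B16F10 cells, 1.34 (SE 0.503), missed the threshold (adjusted p = 0.0548, edgeR) and passed it with all 24 libraries in the fit (adjusted p = 0.0463). STING agonist lay below IFNβ in B16F10 cells by a log2 difference of -1.52 (adjusted p = 0.106, edgeR), which was called without STING agonist replicate 1, at -3.84 (adjusted p = 0.00326).

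**Figure D1:**
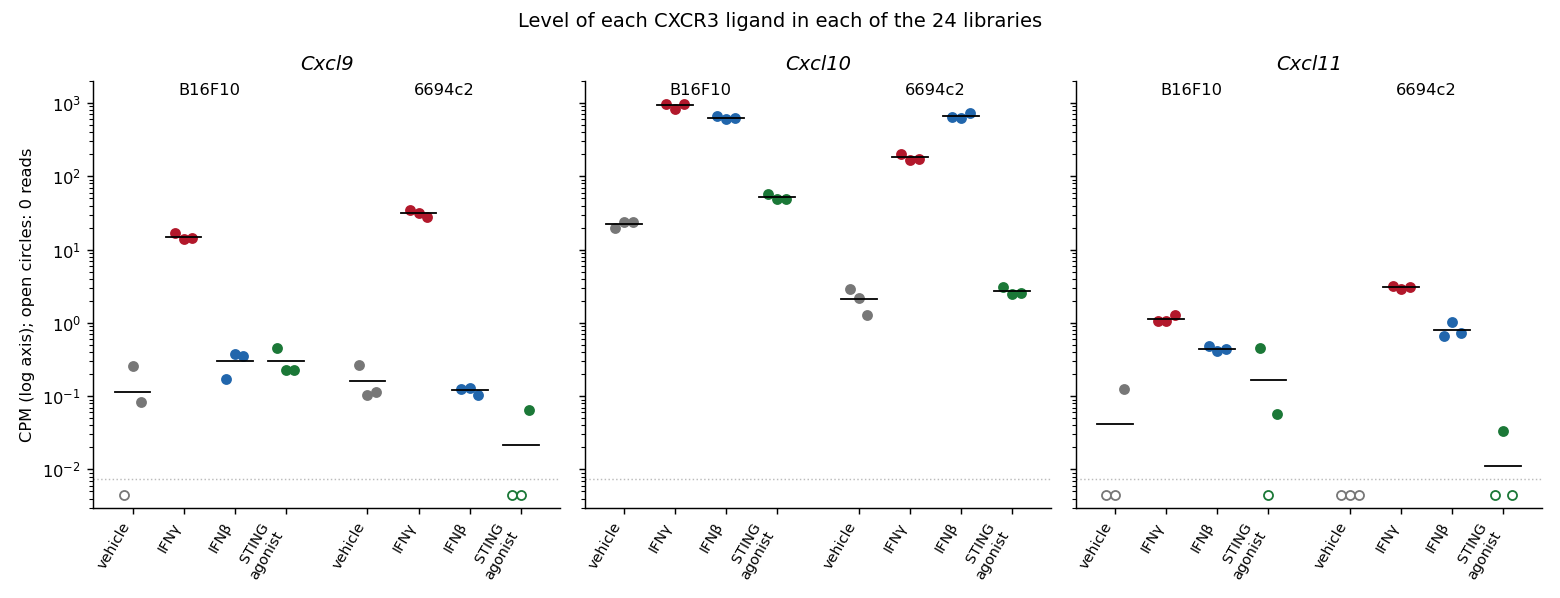
Level of Cxcl9, Cxcl10 and Cxcl11 (CPM, log axis) in each of the 24 libraries, by line and treatment, with black bars for the mean of 3 libraries and open circles under the dotted line for libraries with 0 reads. Cxcl10 reaches 928 CPM with IFNγ in B16F10 and 668 CPM with IFNβ in 6694c2 cells, while Cxcl9 is above 1 CPM with IFNγ alone.

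**Figure D2:**
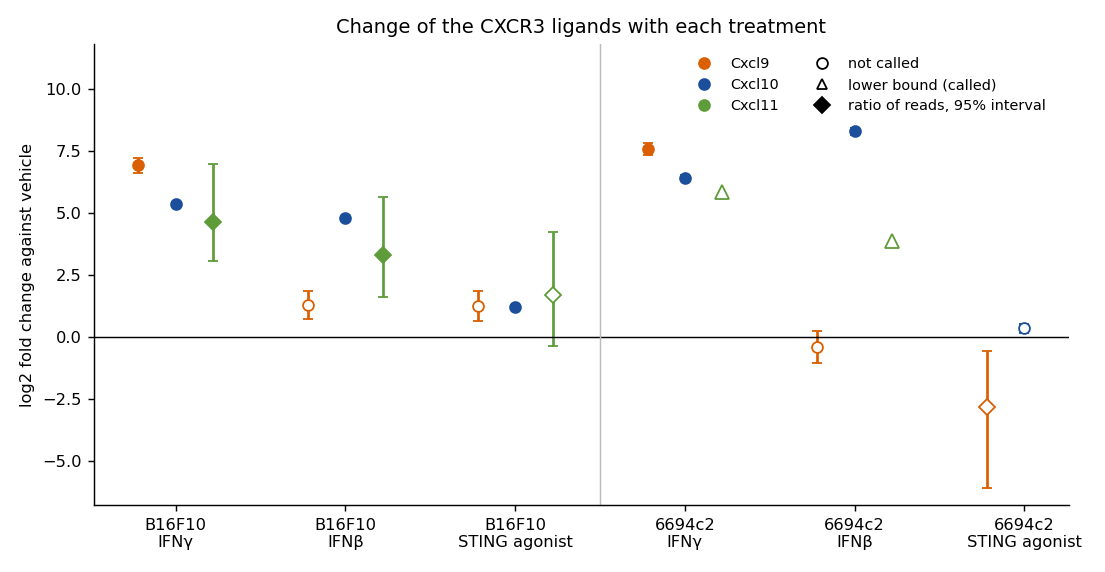
Log2 fold change of the 3 genes against vehicle for each treatment and line, with SE as error bars for circles; diamonds are ratios of reads with a 95% counting interval (a group held 1 to 3 reads), triangles are lower bounds against a group at 0 reads, and open circles and diamonds missed an adjusted p of 0.05. Cxcl11 with STING agonist in 6694c2 cells (1 read against 0) is not drawn. Cxcl10 rises with IFNβ by 4.80 in B16F10 and 8.27 in 6694c2 cells, and Cxcl9 is not called with IFNβ in either line.

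The mix of ligands within a library differed between the interferons, a measure that does not depend on library size. Cxcl9 reads were 1.45% to 1.75% of Cxcl10 reads in B16F10 libraries with IFNγ and 0.0262% to 0.0606% with IFNβ. In 6694c2 libraries they were 16.2% to 18.7% with IFNγ and 0.0143% to 0.0204% with IFNβ. Over both lines, the log2 ratio of Cxcl9 to Cxcl10 (0.5 read added to each) was higher with IFNγ by 7.40 (exact permutation test within lines, two-sided, p = 0.005, the smallest it can give). The difference was 5.07 in B16F10 and 9.72 in 6694c2 cells, each with an exact permutation p of 0.1, the smallest that 3 against 3 libraries allow. Cxcl11 reads were 0.109% to 0.130% of Cxcl10 reads with IFNγ and 0.0673% to 0.0720% with IFNβ in B16F10, and 1.59% to 1.77% and 0.10% to 0.164% in 6694c2 libraries. The log2 ratio of Cxcl11 to Cxcl10 was higher with IFNγ by 2.28 (exact permutation test within lines, two-sided, p = 0.005), by 0.76 in B16F10 and 3.81 in 6694c2 cells.

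**Figure D3:**
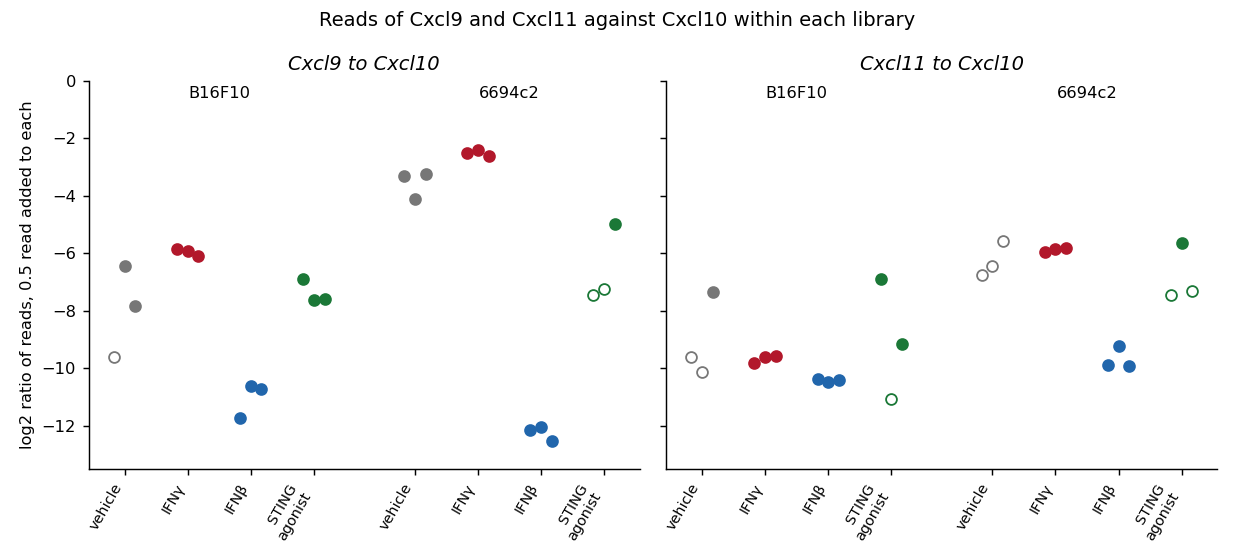
Log2 ratio of Cxcl9 reads (left) and Cxcl11 reads (right) to Cxcl10 reads in each library, with 0.5 read added to each count and open circles where the numerator had 0 reads. In both lines the IFNγ libraries lie above the IFNβ libraries, by 5.07 and 9.72 for Cxcl9.

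The lines were compared in a fit over all 24 libraries. With vehicle, Cxcl10 was lower in 6694c2 than in B16F10 cells by a log2 difference of -3.18 (SE 0.149, adjusted p = 6.17e-22, edgeR), where 29.3% of all genes were called lower. Cxcl9 was not called (log2 difference 0.62, 95% interval -0.83 to 2.07, adjusted p = 0.493, edgeR). It ranged from 0.06 without 6694c2 vehicle replicate 1 to 1.85 without B16F10 vehicle replicate 2. Cxcl11 was at or under the floor of 3 reads in both. The effects of the treatments on Cxcl10 differed between the lines. The log2 effect in B16F10 minus that in 6694c2 cells was -1.01 for IFNγ (SE 0.184, adjusted p = 0.000122, edgeR; 4.52% of genes were called in this direction). For IFNβ it was -3.44 (SE 0.172, adjusted p = 6.12e-19, edgeR; 6.16% of genes). For STING agonist it was 0.86 (SE 0.225, adjusted p = 0.0265, edgeR; 1.56% of genes), a call that was lost without any one of 6 libraries. The difference was 0.77 without B16F10 vehicle replicate 1 (adjusted p = 0.0726) and 0.78 without B16F10 STING agonist replicate 1 (adjusted p = 0.0738). It was 0.59 without 6694c2 vehicle replicate 1 (adjusted p = 0.306), 0.84 without 6694c2 vehicle replicate 2 (adjusted p = 0.0959) and 0.80 and 0.82 without 6694c2 STING agonist replicates 2 and 3 (adjusted p = 0.0722 and 0.0721, edgeR).

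The effects on Cxcl9 were not called different between the lines for IFNγ (-0.64, 95% interval -2.24 to 0.96, adjusted p = 0.759) or IFNβ (1.73, 95% interval -0.13 to 3.58, adjusted p = 0.277, edgeR). The first of these was 0.59 without B16F10 vehicle replicate 2. For STING agonist the difference was 3.84 (SE 1.16, adjusted p = 0.0766, edgeR), with 2 reads in all in the 6694c2 STING agonist group, and it was called by DESeq2 (adjusted p = 0.0289). It was also called without B16F10 vehicle replicate 2 (5.11, adjusted p = 0.0208) and without 6694c2 STING agonist replicate 3 (6.29, adjusted p = 0.0288, edgeR). For Cxcl11 the adjusted p was 0.177 for IFNγ and 0.231 for IFNβ (edgeR), and no fold is given because 6694c2 vehicle held 0 reads.

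The direct difference of IFNγ from IFNβ, which needs no vehicle library, was also compared between the lines, a comparison chosen after the values were seen. For Cxcl10 it was 2.43 more positive in B16F10 cells (SE 0.116, adjusted p = 1.01e-19, edgeR; 4.58% of genes were called in this direction). For Cxcl9 it was -2.37, so less positive in B16F10 cells (SE 0.593, adjusted p = 0.00628, edgeR; 3.87% of genes), and it missed the threshold without B16F10 IFNβ replicate 2 (-2.17, adjusted p = 0.0515). For Cxcl11 it was -0.60 (SE 0.608, adjusted p = 0.668, edgeR).

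The gene of the receptor itself was read at low counts in B16F10 and at almost none in 6694c2 cells. B16F10 libraries held 18, 40 and 40 Cxcr3 reads with vehicle, 4, 2 and 2 with IFNγ, 17, 17 and 13 with IFNβ and 17, 33 and 28 with STING agonist. Cxcr3 fell in B16F10 cells with both interferons, from 1.44 ± 0.456 to 0.117 ± 0.0339 CPM with IFNγ (log2 fold change -3.54, adjusted p = 3.82e-10, edgeR) and to 0.670 ± 0.0922 CPM with IFNβ (log2 fold change -1.11, adjusted p = 0.0196, edgeR; SD, n = 3 each). With STING agonist it stood at 1.40 ± 0.269 CPM (adjusted p = 1). In 6694c2 cells a single Cxcr3 read was counted in the 12 libraries. Dpp4, the gene of a protease that trims these ligands, stayed at or under 0.323 CPM on average in every group and was not called with any treatment.

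The genes around the ligands were followed through a list of 34 genes (Cxcr3, the ligand-binding receptor Ackr3, Dpp4, interferon receptors, kinases, transcription factors, feedback genes, NF-kB and STING pathway genes and the inducing cytokines), of which 32 were tested. In B16F10 cells 15 were called higher and 5 lower with IFNγ, where 12% of all genes were called higher and 10.8% lower. With IFNβ 15 were called higher and 5 lower (12.7% and 11.2% of all genes), and with STING agonist 5 higher and 1 lower (1.93% and 1.53%). In 6694c2 cells 18 were called higher and 1 lower with IFNγ (7.89% and 5.66% of all genes), 14 higher and 0 lower with IFNβ (10.4% and 7.86%) and 1 higher and 0 lower with STING agonist (0.203% and 0.156%). For IFNβ in 6694c2 cells, 0 were lower at an unadjusted p under 0.05 and 0 by DESeq2, and for STING agonist 1 and 0. The median log2 fold change of the list was 0.37, 0.28 and 0.09 in B16F10 and 0.35, 0.24 and 0.03 in 6694c2 cells with IFNγ, IFNβ and STING agonist, while that of all genes lay between 0 and 0.02. The 5 genes called lower with IFNβ in B16F10 cells were 2 or 3 without any one vehicle library or without IFNβ replicate 1, and the 1 called lower with STING agonist, Nfkb1, was lost without any one library of those groups other than vehicle replicate 3. The 5 genes called lower in B16F10 cells with IFNγ were Cxcr3, Ifngr2, Nfkb2, Relb and Irf3.

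The transcription factor gene Irf1 rose with both interferons in both lines. Irf1, a factor that binds ISRE-like sites, rose in B16F10 cells from 13.2 ± 2.19 CPM to 682 ± 17.4 with IFNγ and 42.4 ± 4.25 with IFNβ. In 6694c2 cells it rose from 20.5 ± 1.68 CPM to 535 ± 18.1 and 99.9 ± 4.79 (SD, n = 3 each). These 4 changes were called (edgeR), and the difference between the interferons is not reported here. With STING agonist Irf1 (log2 fold change 0.44, adjusted p = 1.64e-05) rose in B16F10 cells, together with Stat2 (1.04), Irf9 (0.39) and Usp18 (1.15), which restrains the type I receptor, and Nfkb1 fell by 0.23 on the log2 scale.

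Irf7, the interferon regulatory factor that amplifies type I responses, was the list's only call with STING agonist in 6694c2 cells, at 2.73 ± 0.415 against 0.878 ± 0.415 CPM (log2 fold change 1.62, adjusted p = 2.91e-06, edgeR). In that line it reached 71.8 ± 4.82 CPM with IFNγ and 910.4 ± 55.2 CPM with IFNβ, whereas B16F10 cells had 1.59 ± 0.845 and 2.82 ± 0.305 CPM (SD, n = 3 each). The B16F10 difference was called with IFNβ (1.49, adjusted p = 7.53e-06) and not with IFNγ (0.67, adjusted p = 0.12, edgeR). Stat2, a transcription factor gene of the type I response, and Usp18 were among the 4 list genes with the largest called changes with IFNβ in both lines, at log2 fold changes of 4.16 and 4.12 in B16F10 and 4.70 and 8.32 in 6694c2 cells. Socs1, a feedback inhibitor of JAK kinases, rose with IFNγ by 4.71 on the log2 scale in B16F10 and 4.98 in 6694c2 cells. Tmem173, the gene of STING, stood at 30.9 ± 0.926 CPM in B16F10 and 1.77 ± 0.460 CPM in 6694c2 cells with vehicle (SD, n = 3 each). It rose with IFNγ in both lines, by 0.88 in B16F10 and 1.86 in 6694c2 cells on the log2 scale. With IFNβ it was called in B16F10 (0.20, adjusted p = 0.0457) and not in 6694c2 cells (0.53, adjusted p = 0.0935, edgeR), and a difference between the lines is not reported here. With STING agonist it was called in neither. Ifnb1 and Ifng had at most 1 read, and Tnf at most 4, in any library.

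**Figure D4:**
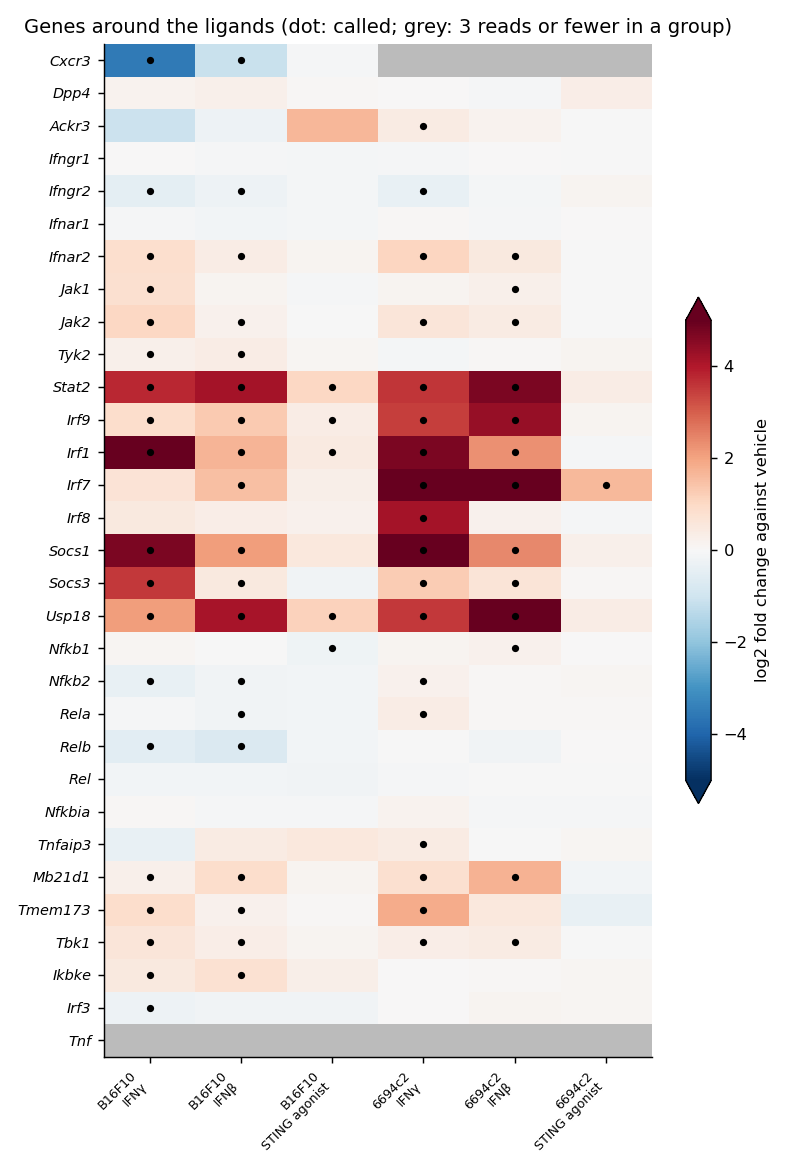
Log2 fold change against vehicle (color, scale ending at -5 and 5) of tested genes of the list in 6 comparisons, with a dot where the gene was called and grey where a group held 3 reads or fewer. Stat2, Irf9, Irf1, Socs1 and Usp18 are dotted with both interferons in both lines, and Cxcr3 in B16F10 cells is the deepest blue with IFNγ, at -3.54.

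Called changes of the genes around the cluster were smaller than those of Cxcl10 with the interferons, which were 4.80 or more on the log2 scale. Within 250 kb of the 3 genes lie 20 others, of which 11 were tested. G3bp2, a stress granule gene, and Scarb2, a lysosomal membrane gene, rose with both interferons in both lines, with log2 fold changes from 0.37 to 0.90 and from 0.50 to 0.76. Sdad1, 10.9 kb from Cxcl9, rose with both interferons in B16F10 (0.18 and 0.32) and with IFNβ in 6694c2 cells (0.36), and Uso1 was lower with IFNβ in B16F10 cells (-0.26, adjusted p = 0.00035, edgeR). With STING agonist the adjusted p-values of these neighbors were 0.659 or more in B16F10 and 0.4997 or more in 6694c2 cells.

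Art3, an ADP-ribosyltransferase gene on the opposite strand (92331827 to 92414628), spans Cxcl10 and Cxcl11 and shares 133 exon bases with Cxcl10. In B16F10 cells it held 79, 131 and 118 reads with vehicle, 296, 217 and 261 with IFNγ, 332, 375 and 367 with IFNβ and 80, 117 and 105 with STING agonist. Both interferon groups lay above vehicle (log2 fold change 1.24, adjusted p = 1.97e-17, and 1.64, adjusted p = 1.26e-29, edgeR). In 6694c2 cells Art3 held at most 4 reads in any library, also where Cxcl10 held 14672 to 20964. Whether reads were counted by strand is not given in the sources used here. The part of reads from the shared exon bases in the Art3 and Cxcl10 counts of B16F10 cells was not tested. The processed pseudogene Gm2673 shares 1582 of the 3794 counted exon bases of Cxcl11 on the opposite strand and had 0 reads in all libraries. How reads in the shared bases were assigned was not tested. If they were left uncounted, Cxcl11 reads and its share of the summed RPKM are too low.

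**Figure D5:**
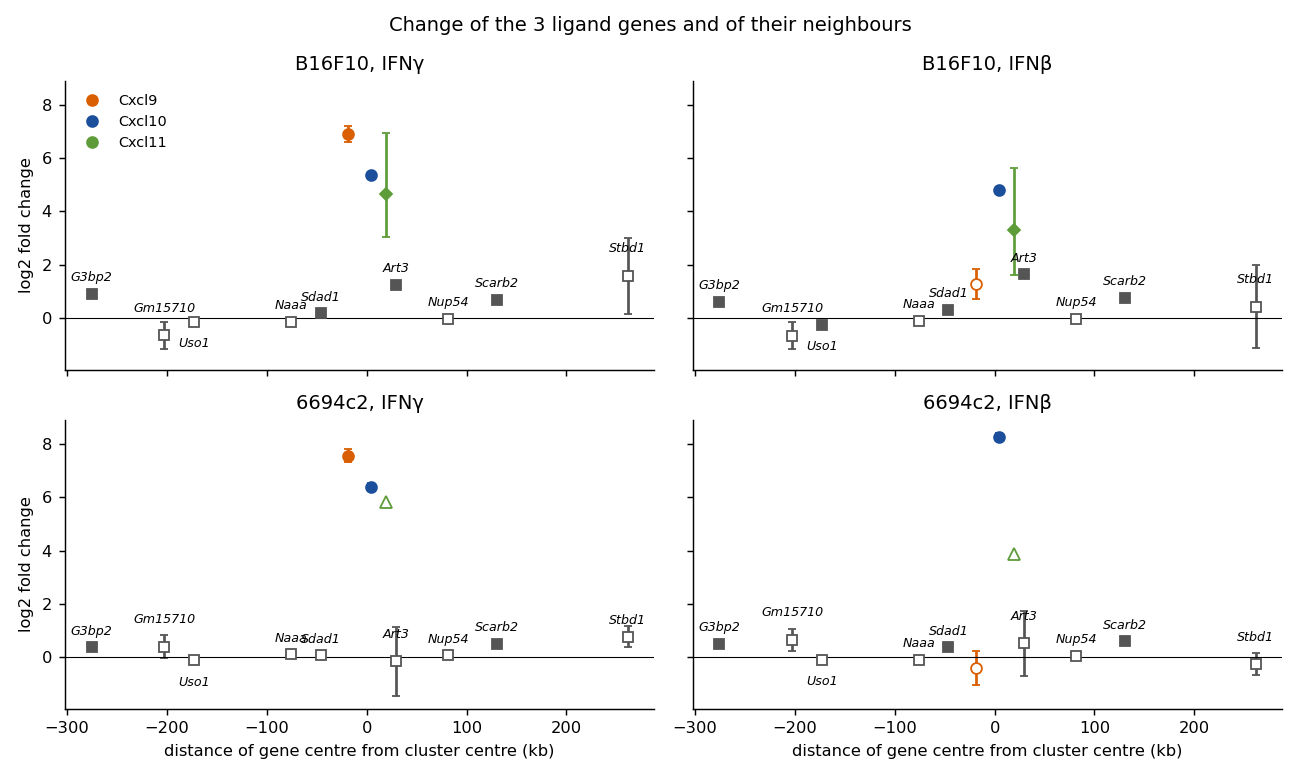
Log2 fold change against vehicle with IFNγ and IFNβ in each line (SE as error bars; diamonds are ratios of reads with a 95% counting interval and triangles lower bounds) of the 3 ligand genes and of the neighboring genes with at least 100 reads in all, against the distance of each gene's center from the center of the cluster. Filled squares and circles passed an adjusted p of 0.05; the largest neighbor change drawn as called is that of Art3 in B16F10 cells, at 1.64 with IFNβ.

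No gene was shared among the 3 most similar genes of each ligand over the 24 libraries. By Pearson's r of log2 CPM, given as a description because the libraries share lines and treatments, Cxcl9 was most like Tnfrsf1a (0.968), a TNF receptor gene, and the guanylate-binding protein genes Gbp4 (0.964) and Gbp10 (0.961). Cxcl10 was most like Mlkl (0.991), the effector of necroptosis, Parp12 (0.990) and Oasl2 (0.989). Cxcl11 was most like Samhd1 (0.964), a dNTP hydrolase gene, the complement gene C4b (0.960) and Gbp7 (0.952). Among themselves the ligands had r of 0.510 (Cxcl9 and Cxcl10), 0.792 (Cxcl9 and Cxcl11) and 0.796 (Cxcl10 and Cxcl11).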

How the data were processed

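Per the study's methods, adaptors were trimmed with cutadapt, reads were aligned with STAR and read counts were made with Rsubread, and the authors deposited these as raw counts per gene, the unit used here. Build, annotation, strand setting and handling of multi-mapping reads for these counts are not given in the sources used here. Gene spans in the deposited files equalled those of GENCODE M21 (GRCm38) for 91.4% of 49056 shared genes. The study's single-cell samples were not analysed here.

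The 3 genes, the lists and the tests were chosen with earlier results of these data known. Genes with at least 10 reads combined over 24 libraries were kept, the study's own minimum. Each line's 12 libraries were fitted with TMM normalization and group means by edgeR's quasi-likelihood test (edgeR 4.0.16, R 4.3.3, Benjamini-Hochberg adjustment, called at an adjusted p under 0.05). Comparisons between lines were fitted over all 24 libraries. Each SE is the log2 fold change over the root of its F statistic. Counting intervals are exact binomial. Alternatives were DESeq2 1.42.0, no filter, edgeR's filterByExpr minimum, RLE scaling, replicate number as a block, another set of libraries in the fit and each library left out. Named were the 3 ligands, the 4 called list genes with the largest changes per comparison, Cxcr3, Irf1, Irf7, Socs1, Tmem173 and Dpp4, genes within 250 kb, and for each ligand the 3 genes of at least 1 CPM on average most correlated with it (log2 CPM, prior count 2). Other list genes, such as Irf9 and Nfkb1 with STING agonist, the genes called lower with IFNγ and the inducing cytokines, were named after their values were seen. Some list genes that the rule names, and some alleles of the lines, are not reported here. Replicates of a group correlated at 0.989 to 0.993 and all pairs differed beyond sampling noise.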

Additional observations from a re-analysis of the deposited data

Results flagged for a closer look

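The effect of each treatment on Cxcl10 differed between the lines by a test of the difference itself over all 24 libraries (edgeR's quasi-likelihood F-test, Benjamini-Hochberg adjusted). In B16F10 minus 6694c2 cells the log2 difference was -1.01 for IFNγ, -3.44 for IFNβ and 0.86 for STING agonist. The STING agonist call was lost without any one of 6 libraries (adjusted p from 0.0721 to 0.306). The direct difference of IFNγ from IFNβ, a comparison chosen after the values were seen, also differed between the lines, by 2.43 for Cxcl10 and by -2.37 for Cxcl9. The first 3 of these rest on the 6694c2 vehicle group, which held 120 Cxcl10 reads in all, and the last 2 use no vehicle library.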

How the results depend on the processing

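Of 706 alternative values for 53 results, 674 kept their direction and their side of the threshold (for a count, stayed within 1.5 times), among them every one for Cxcl10 within a line and for the ratios to Cxcl10 reads. The cause of the other changes was not tested. With all 24 libraries in one fit, Cxcl11 with IFNγ against IFNβ in B16F10 cells was called at 1.35, and 0 list genes were lower with STING agonist in B16F10 cells (1 by unadjusted p and 1 by DESeq2 in the 12-library fit). Without a filter, 3 list genes were lower with IFNβ in B16F10 cells, and the difference between lines in the STING agonist effect on Cxcl9 was called at 3.84 (adjusted p = 0.0319). By DESeq2 it was called at 4.14. With each library left out in turn, log2 values in B16F10 cells ranged from 0.79 to 2.56 for Cxcl9 with IFNβ, from -0.69 to 4.73 for Cxcl11 with STING agonist, and for STING agonist against IFNβ from -0.38 to 0.16 for Cxcl9 and from -3.84 to -0.85 for Cxcl11. Cxcl9 with STING agonist against IFNβ turned to 0.16 and 0.08 without IFNβ replicates 2 and 3 and to 0.14 and 0.11 without STING agonist replicates 2 and 3. In 6694c2 cells Cxcl9 with IFNβ ranged from -0.67 to 0.14. Differences between the lines ranged from -1.20 to 0.59 (Cxcl9, IFNγ), from 3.28 to 6.29 (Cxcl9, STING agonist), from 0.59 to 1.11 (Cxcl10, STING agonist) and from -2.63 to -2.17 (Cxcl9, IFNγ against IFNβ). List genes called lower in B16F10 cells numbered 2 to 5 with IFNβ and 0 to 1 with STING agonist. Deviations of same-numbered libraries correlated at -0.149 to 0.127. With 3 libraries per group this cannot show whether the replicate numbers pair the libraries, and the labels do not say. With replicate number as a block, no call for the 3 ligands changed, Cxcl10 with IFNγ in B16F10 cells was 5.35, the STING agonist difference between lines for Cxcl10 was 0.86 (adjusted p = 0.0147) and 17 list genes rose with IFNγ in 6694c2 cells. In the block of pairs by number, the differences in ratio stayed at 7.40 and 2.28 (exact sign-flip test, two-sided, p = 0.03125 each). Depth limits Cxcl9 outside IFNγ and Cxcl11 in vehicle and STING agonist groups, where no library held more than 9 reads. Leaving out a library leaves groups of 2, whose spread is pooled with the other groups.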
